A study of Mus musculus with 62 samples.

Results

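The genes described here encode secreted growth factors of neurons and the receptors that bind them: the ligands *Bdnf*, *Ntf3* and *Gdnf*, the neurotrophin receptors *Ntrk2*, *Ntrk3* and *Ngfr*, and the GDNF-family receptor genes *Ret*, *Gfra1* and *Gfra2*. They were taken by name, 9 of the 56415 genes counted, and for *Bdnf* and *Ntrk2* the annotated isoforms were examined as well, 11 and 10 of them. Poly(A) RNA was sequenced from the cortex (CTX), dorsal and ventral hippocampus (dHPC, vHPC), and dorsal and ventral striatum (DS, VS) of male C57BL/6J mice aged 8 to 10 weeks, 62 libraries from 16 mice. Acute mice had 1 intraperitoneal injection of 2 g/kg ethanol in saline, chronic mice had 10 daily injections of the same dose, the controls of each paradigm had equal volumes of saline (0 g/kg ethanol), and all mice were killed 4 h after their last injection. Groups numbered 20 and held 3 or 4 mice each, and every control was injected as often as its ethanol group.

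Brain-derived neurotrophic factor (BDNF), the product of *Bdnf*, is released by excitatory neurons in an activity-dependent way and acts on the receptor tyrosine kinase TrkB, the product of *Ntrk2*. Neurotrophin-3 (*Ntf3*) acts mainly on TrkC (*Ntrk3*), and all neurotrophins and their uncleaved precursors can bind p75 (*Ngfr*), which in the adult forebrain is best known from basal forebrain cholinergic neurons. Glial cell line-derived neurotrophic factor (*Gdnf*) binds the membrane-anchored co-receptor encoded by *Gfra1*, neurturin prefers the one encoded by *Gfra2*, and both complexes signal through the tyrosine kinase Ret. Most striatal BDNF protein is made in cortical neurons and carried to the striatum in their axons, whereas striatal neurons themselves make *Gdnf*. BDNF and GDNF in the striatum have been studied as factors that limit alcohol intake in rodents.

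*Bdnf* lies on chromosome 2 (GRCm39, chr2:109505045-109557475, plus strand). Its isoforms differ in the first exon, and several of these exons have a promoter of their own, while Bdnf-207, Bdnf-208 and Bdnf-210 start at the same base. All 11 isoforms counted here end in the same 3′ exon of 3626 bases that carries the coding sequence. The first exons IV and VI received the most reads that lay in a single first exon, and the 200 bases before each of them are shown because reads from these exons are the part of the data that tells the promoters apart. Capitals mark TCACGTCA, a variant of the cAMP response element, which was searched on both strands together with the full element TGACGTCA. The variant stands 38 bases before the first exon of Bdnf-209 (exon IV), and neither element was found before that of Bdnf-205 (exon VI). Of 32544 windows of 200 bases before RefSeq gene starts (GRCm38.p6), 0.295% held the variant and 1.48% the full element. The bases were read from the GRCm39 genome, for Bdnf-209 at chr2:109522581-109522780 and for Bdnf-205 at chr2:109523708-109523907, plus strand.
Bdnf-209 upstream: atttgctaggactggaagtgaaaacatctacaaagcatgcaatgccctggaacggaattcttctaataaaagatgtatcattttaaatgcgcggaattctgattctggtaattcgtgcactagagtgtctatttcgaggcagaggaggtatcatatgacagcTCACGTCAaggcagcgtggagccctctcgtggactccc
Bdnf-205 upstream: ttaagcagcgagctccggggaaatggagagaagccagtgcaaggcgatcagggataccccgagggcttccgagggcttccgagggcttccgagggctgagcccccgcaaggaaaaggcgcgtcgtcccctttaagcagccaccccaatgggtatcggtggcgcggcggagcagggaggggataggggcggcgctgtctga

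*Ntrk2* lies on chromosome 13 (chr13:58954176-59281784, plus strand). Its isoform Ntrk2-201 encodes the full-length TrkB with the kinase, and Ntrk2-202 the truncated TrkB.T1, which lacks the kinase and is the main form in astrocytes. The coding sequences part after an exon that both share, and the bases on either side of that junction are shown because they mark where the isoforms part. The last 30 shared bases are in lower case (chr13:59026047-59026076) and the 38 bases that follow in each isoform are in capitals, at chr13:59079837-59079874 for Ntrk2-202, where they run to the stop codon, and at chr13:59133616-59133653 for Ntrk2-201, where the coding sequence goes on.
Ntrk2-202: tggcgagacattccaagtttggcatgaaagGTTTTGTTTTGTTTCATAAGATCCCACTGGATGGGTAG
Ntrk2-201: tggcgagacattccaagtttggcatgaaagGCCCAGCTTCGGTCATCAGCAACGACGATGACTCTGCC

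The other genes lie, in GRCm39, at chr6:126078375-126143873 (*Ntf3*, minus strand), chr15:7840327-7867060 (*Gdnf*, plus), chr7:77825707-78387760 (*Ntrk3*, minus), chr11:95459638-95478561 (*Ngfr*, minus), chr6:118128706-118174769 (*Ret*, minus), chr19:58223212-58444346 (*Gfra1*, minus) and chr14:71127472-71217280 (*Gfra2*, plus), as GENCODE vM39 gives them.

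Totals on genes ran from 43173748 to 71164766 counts in CTX and dHPC (batch 1) and from 8149628 to 46564992 in vHPC, DS and VS (batch 2). The batches differ in library kit and sequencing platform, so levels were tested only between regions of the same batch. The DS library of chronic saline replicate 2 had 0 counts on chromosomes 7, 8, 9, X, Y and MT and on most of chromosome 6, which hold *Ntrk3*, *Ntf3* and *Ret*, and was left out of all gene-level values and tests, so DS chronic saline has 2 mice. Levels are given as CPM, counts scaled to library size after TMM normalisation within a region. A gene was called when edgeR's quasi-likelihood test gave a Benjamini-Hochberg FDR below 0.1 over all genes tested, and errors of log2 fold changes are SEs. The summed level of 12 striatal projection neuron markers was 3630 to 11004 CPM in DS and VS and 296 to 3541 CPM in dHPC and vHPC. These ranges did not overlap, but the gap was narrow and dHPC belongs to the other batch. In bulk tissue, fewer cells of a type and less RNA per cell cannot be told apart. Because 1 mouse gave several regions, results in different regions share animals.

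Levels per kilobase of annotated exon put *Ntrk2* first in every region, at 28.2 to 32.1 CPM per kb on average in saline mice. Such levels can be compared between genes only roughly, since the length covers all annotated exons of a gene and not those of a single isoform. That length was 19292 bases for *Ntrk2* and 6217 for *Bdnf*, whose longest isoforms have 8744 and 4266 bases. In CTX, *Gfra2* came next at 21.9 ± 2.55 (SD, n = 6) CPM per kb, followed by *Gfra1* at 4.80 ± 0.224, *Ntrk3* at 4.75 ± 0.684 and *Bdnf* at 4.37 ± 0.832. These last 3 had overlapping ranges, while the lowest *Gfra2* library stood at 18.4. In the other 4 regions *Gfra1* was second, from 9.82 in vHPC to 15.2 in VS, and *Gfra2* came after it, and their ranges overlapped in dHPC, vHPC and DS but not in VS. *Gdnf* was last in CTX, dHPC and vHPC, at 0.0209, 0.151 and 0.0421 CPM per kb, and *Ntf3* was last in DS and VS, at 0.507 and 0.143. *Ntrk2* in DS therefore stood beside ligands at 1.35 (*Bdnf*), 1.11 (*Gdnf*) and 0.507 (*Ntf3*) CPM per kb, whose ranges over the 5 saline libraries overlapped.

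**Figure D1:**
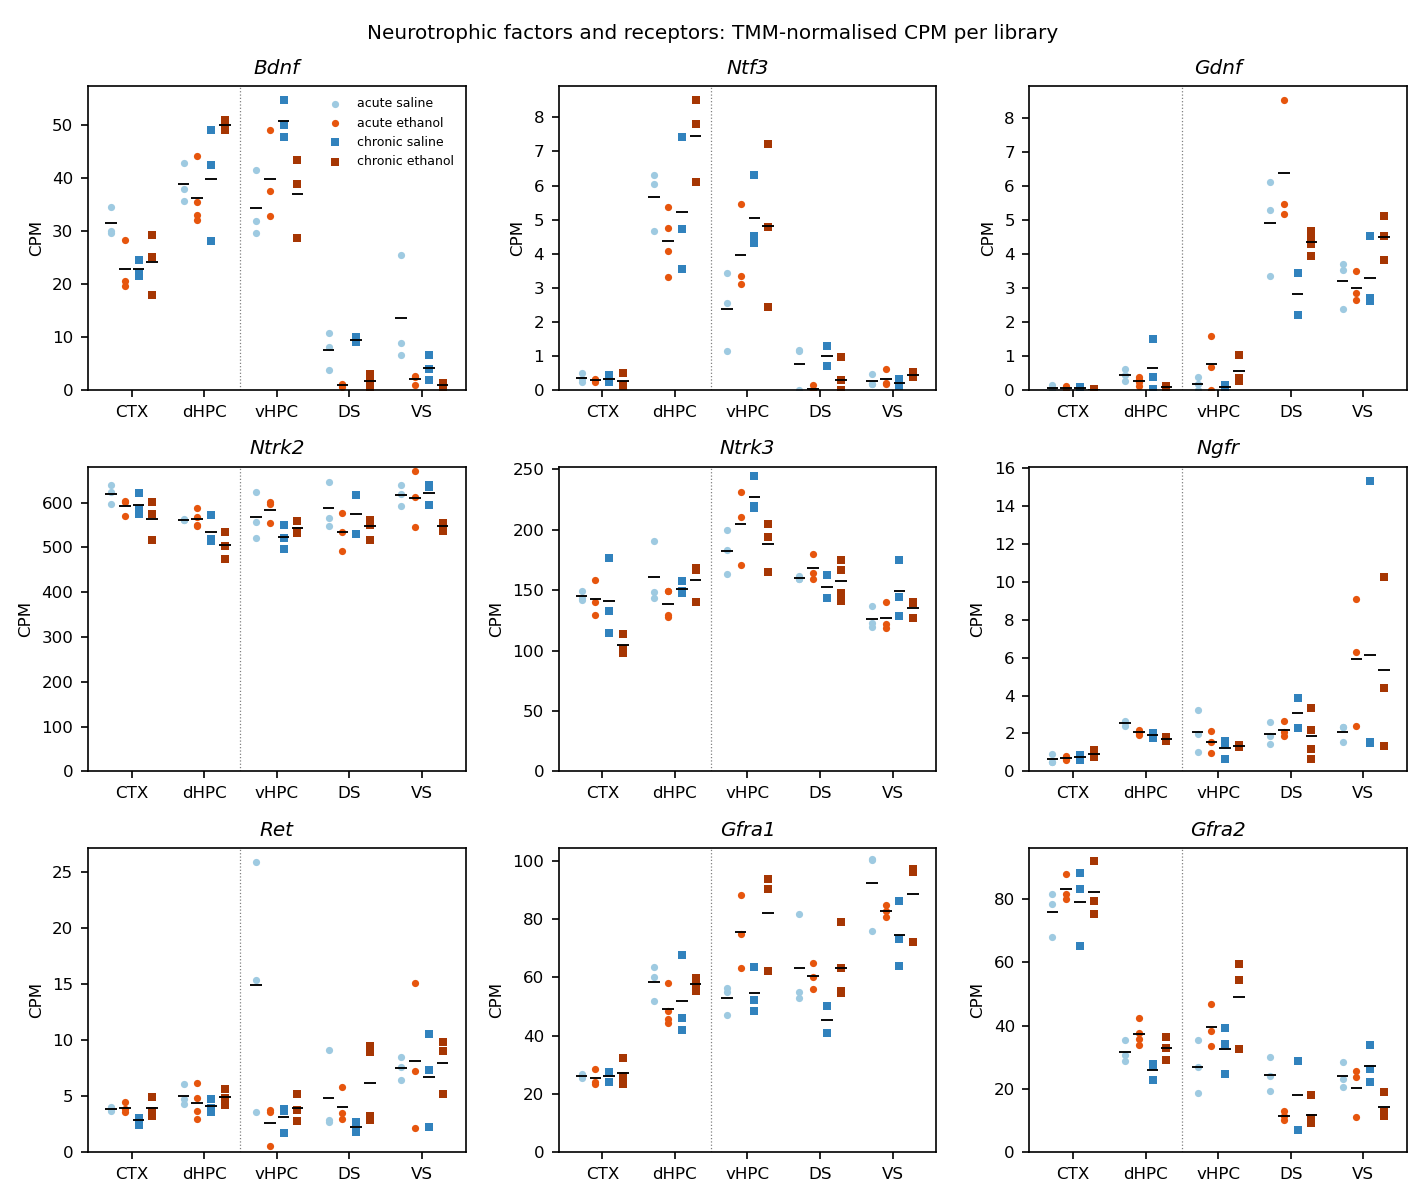
CPM of each of the 9 genes (vertical axes, from 0) in every library, by region (horizontal axis), for acute saline, acute ethanol, chronic saline and chronic ethanol mice; horizontal bars are group means and the dotted line parts the 2 batches. Within batch 1, *Bdnf* has its higher mean in dHPC and *Gfra2* in CTX, within batch 2 *Bdnf* is highest in vHPC and *Gdnf* in DS and VS, and *Ntrk2* stays between 475 and 670 CPM in all libraries shown.

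Between regions of the same batch, 19 of 36 tests in saline mice were called, with the mouse as a block. In dHPC over CTX, 8 of 9 genes were called, where 44.5% of all genes tested were. *Ntf3* was 3.67 ± 0.15 (log2) higher in dHPC, with CTX mice at 0.252 to 0.518 CPM and dHPC mice at 3.55 to 7.43 CPM. *Gdnf* was 2.61 ± 0.69 higher in dHPC, *Ngfr* 1.63 ± 0.22, *Gfra1* 1.09 ± 0.08, *Bdnf* 0.43 ± 0.11 and *Ret* 0.40 ± 0.14. *Gfra2* was lower in dHPC, at -1.60 ± 0.10, as was *Ntrk2*, at -0.18 ± 0.05. For *Ntrk3* the FDR was 0.113, and the *Ret* call was lost in DESeq2 (FDR 0.122).

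The striatum differed from vHPC in all 3 ligands. In DS over vHPC, 4 genes were called (39.3% of all genes) and in VS over vHPC 5 (35.2%). *Bdnf* was lower, at -2.31 ± 0.35 in DS and -2.19 ± 0.36 in VS, as was *Ntf3*, at -1.96 ± 0.58 and -3.61 ± 0.66. *Gdnf* went the other way, at +4.42 ± 0.47 in DS and +4.07 ± 0.47 in VS: saline mice had 0 to 0.404 CPM in vHPC, 2.22 to 6.13 CPM in DS and 2.40 to 4.53 CPM in VS. *Ntrk3* was lower, at -0.29 ± 0.08 in DS and -0.65 ± 0.08 in VS, and *Gfra1* was higher in VS by 0.60 ± 0.11. In VS over DS, 2 genes were called (3.26% of all genes), *Ntrk3* at -0.35 ± 0.08 with an FDR of 0.0602 and *Gfra1* at +0.49 ± 0.11 with an FDR of 0.0544. *Bdnf*, *Gdnf* and *Ntrk2* did not pass the test between DS and VS, with FDRs of 0.915, 0.667 and 0.985. With acute saline mice alone, the calls of *Ntrk3* (FDR 0.258) and *Ntf3* (0.161) in DS over vHPC and of *Gfra1* in VS over DS (0.208) were lost. With the incomplete DS library included, *Ntrk3* was called in none of the 3 comparisons of batch 2 (FDR 0.587 to 0.990), nor *Gfra1* in VS over DS (0.281).

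Low *Gdnf* counts of the hippocampus stood beside varying levels of striatal neuron markers, a comparison chosen after the values were seen. In dHPC chronic saline mice *Gdnf* was at 0.408, 1.51 and 0.0447 CPM, and the summed level of the 12 striatal projection neuron markers in the same libraries, in the same order, was 922, 3541 and 347 CPM. In vHPC acute ethanol mice *Gdnf* was at 0.697, 1.60 and 0 CPM beside marker sums of 574, 1602 and 360, and in vHPC chronic ethanol mice at 0.375, 1.04 and 0.281 beside 392, 1908 and 379. In 7 of the 8 hippocampal groups the library with the highest *Gdnf* also had the highest marker sum. The exception was dHPC acute ethanol, where *Gdnf* at 0.407, 0.249, 0.342 and 0.117 CPM stood beside sums of 635, 500.4, 860.0 and 470 CPM. None of the 12 markers was at 0 in these groups, and DS libraries of acute saline mice had sums of 7293 to 8632. *Gdnf* had only 6, 3 and 0 reads in vHPC acute saline libraries and 0, 2 and 2 in vHPC chronic saline ones, so the highest library there is uncertain. How often other genes would match in this way was not counted. The part of the striatal markers in the hippocampal *Gdnf* values was not tested.

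The comparison of ethanol with saline after 1 injection addressed the acute response. Of 43 gene and region pairs that passed the low-count filter, 2 were called by edgeR, both in DS and both lower with ethanol: *Bdnf* and *Gfra2*. *Ntf3* in VS and *Gdnf* in CTX had too few counts to be tested. Over all genes tested, 5.15% were called in DS, 3.1% as lower. CTX had calls for 1.99% of all genes and for 0 of 8 members tested, dHPC for 0.042% and 0 of 9, vHPC for 0% and 0 of 9, and VS for 0.0399% and 0 of 8. Unadjusted p was under 0.05 in 12 pairs, against 10.9% of all genes over the 5 regions. The groups did not overlap in 7 of the 43 pairs, close to the 15.2% of all genes whose groups did not. DESeq2 called 5 pairs, *Bdnf* in CTX, DS and VS, *Gfra2* in DS and *Gfra1* in vHPC (FDR 0.0396), and its share of all genes was 3.69% for CTX, 6.4% for DS, 0.889% for VS, 2.9% for vHPC and 1.07% for dHPC.

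*Bdnf* in DS fell 8.35-fold after acute ethanol. The saline mice had 8.11, 3.89 and 10.9 CPM (82, 54 and 152 reads) and the ethanol mice 0.929, 1.29 and 0.658 CPM (12, 20 and 30 reads). Every ethanol library was below every saline library, and the log2 fold change was -3.06 ± 0.40 with an FDR of 0.000819. The call held in every alternative and without each library in turn, with FDRs up to 0.0145.

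*Gfra2*, the co-receptor for neurturin, fell 2.10-fold in the same comparison. Saline mice had 30.1, 19.5 and 24.2 CPM and ethanol mice 11.6, 10.2 and 12.9 CPM, again without overlap, at a log2 fold change of -1.07 ± 0.16 and an FDR of 0.00220. It was not called when all 4 DS groups were fitted together (FDR 0.249). The receptors of BDNF did not pass the test in DS, with *Ntrk2* at -0.14 ± 0.08 (FDR 0.430) and *Ngfr* at +0.17 ± 0.35 (FDR 0.877). *Ret*, through which the *Gfra2* product signals, was at -0.19 ± 0.42 (FDR 0.887). The other ligand and co-receptor of that family were not called either, with *Gdnf* at +0.34 ± 0.27 (FDR 0.605) and *Gfra1* at -0.06 ± 0.14 (FDR 0.885).

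VS gave a *Bdnf* difference of similar size that was not called. Acute saline mice had 6.65, 8.85 and 25.5 CPM and ethanol mice 1.04, 2.67 and 2.51 CPM, so the groups did not overlap. The log2 fold change was -2.77 ± 0.53 (6.82-fold lower) with an FDR of 0.185, and DESeq2 called it. Without VS acute saline replicate 2 the FDR was 0.0568, and without VS acute ethanol replicate 2 it was 0.0945.

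In CTX, *Bdnf* stood at 29.7, 30.1 and 34.7 CPM after acute saline and at 28.5, 19.6 and 20.7 CPM after acute ethanol. The groups did not overlap, and the log2 fold change of -0.46 ± 0.12 had an FDR of 0.1004, just above the threshold. DESeq2 gave an FDR of 0.00688, and leaving out CTX acute ethanol replicate 2, the ethanol mouse closest to the controls, gave 0.00779. The CTX kit keeps no strand, and 13.5% of *Bdnf* exon bases are shared with *Gm45346* on the other strand, whose reads cannot be told apart there. The pallial marker sum, explained next, was 2021 to 2175 CPM with saline and 1989 to 2086 CPM with ethanol in these libraries, and *Bdnf* per 100 CPM of it was 1.46, 1.39 and 1.72 CPM against 1.36, 0.988 and 1.03 CPM, without overlap. In the same comparison 5 of 8 oligodendrocyte markers rose and 3 of 6 meningeal fibroblast markers fell, and their part was not tested. In dHPC and vHPC *Bdnf* was at -0.10 ± 0.11 (FDR 0.888) and +0.21 ± 0.17 (FDR 0.669), with overlapping groups.

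The DS and VS libraries also differed in markers of pallial excitatory neurons, the glutamatergic neurons of cortex, hippocampus and neighbouring areas. The summed level of the 9 markers was 405, 448 and 537 CPM in DS acute saline mice and 43.1, 124 and 34.4 CPM in DS acute ethanol mice, 8 of the 9 fell, and none was at 0 in either group. Per 100 CPM of these markers, *Bdnf* was at 2.00, 0.870 and 2.02 CPM in DS acute saline mice and at 2.15, 1.05 and 1.91 CPM in DS acute ethanol mice, which overlap, a ratio that was chosen after the values were seen. *Gfra2* per 100 CPM of the markers was at 7.42, 4.35 and 4.499 CPM with saline and 26.9, 8.27 and 37.6 CPM with ethanol, which do not. The summed level of 12 striatal projection neuron markers went from 7293 to 8632 CPM with saline to 9667 to 9756 CPM with ethanol, and 9 of them rose. The part of the pallial markers in the *Bdnf* and *Gfra2* calls was not tested.

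In VS the same markers summed to 365, 669 and 879 CPM with acute saline and to 160, 54.9 and 74.0 CPM with acute ethanol, and 1 of the 9 was called, as lower. *Bdnf* per 100 CPM of them was 1.82, 1.32 and 2.90 CPM with saline and 0.648, 4.87 and 3.40 CPM with ethanol. These overlap, with 1 ethanol mouse below and 2 above all saline mice. The saline mouse with the highest *Bdnf*, at 25.5 CPM, was also the one with the highest marker sum.

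**Figure D2:**
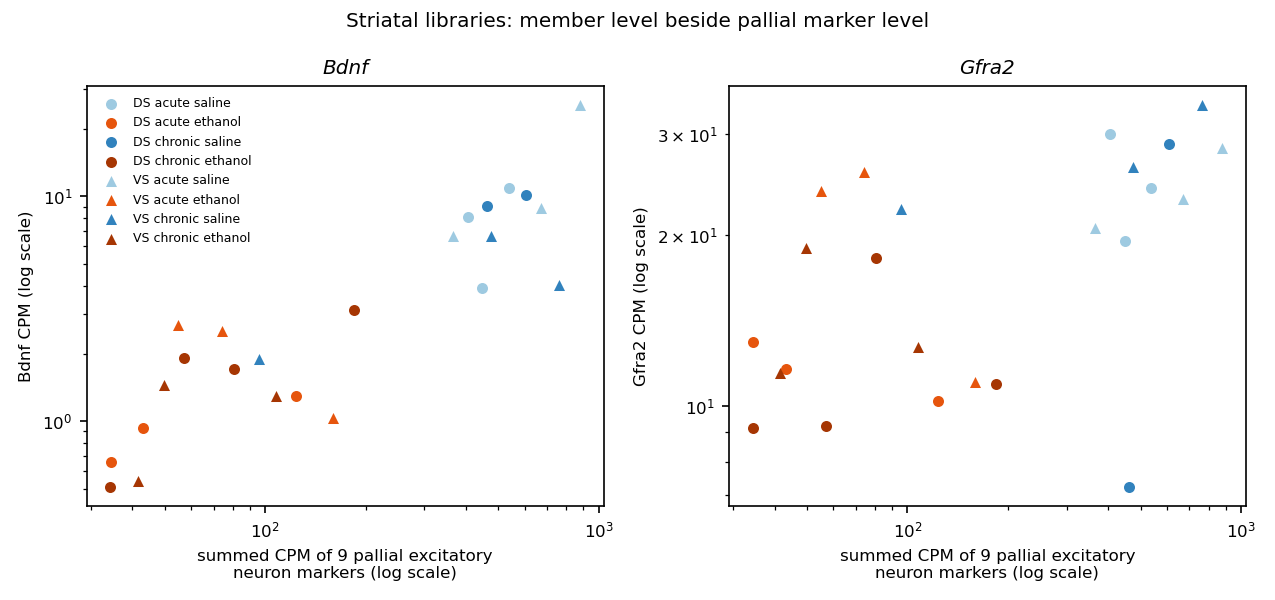
CPM of *Bdnf* (left) and *Gfra2* (right, both vertical axes on a log scale) against the summed CPM of 9 pallial excitatory neuron markers (horizontal axis, log scale) in each DS and VS library, by paradigm and treatment. Ethanol libraries lie at low marker sums, 34.3 to 184 CPM, with *Bdnf* from 0.510 to 3.13 CPM and *Gfra2* from 9.18 to 25.8 CPM.

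The other ligands passed no acute test. *Ntf3* in DS had 1.19, 0 and 1.14 CPM with saline and 0.155, 0 and 0 CPM with ethanol, at most 16 reads in a library, and an FDR of 0.147. Without DS acute saline replicate 4, the control at 0, the FDR was 0.0477. *Ntf3* in dHPC was at -0.37 ± 0.17 and in vHPC at +0.73 ± 0.42, and *Gdnf* in DS and VS at +0.34 ± 0.27 and -0.09 ± 0.30.

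Among the neurotrophin receptors, *Ntrk2* and *Ntrk3* gave small acute differences. *Ntrk2* log2 fold changes lay between -0.14 and 0.04 over the 5 regions and those of *Ntrk3* between -0.21 and 0.16, with FDRs of at least 0.430 and 0.638. *Ngfr* in VS was at 2.35, 2.35 and 1.56 CPM with saline and 2.42, 9.09 and 6.29 CPM with ethanol. These did not overlap, the log2 fold change was +1.502 ± 0.46 with an FDR of 0.479, and without VS acute ethanol replicate 2 the FDR was 0.0404. The 6 cholinergic neuron markers summed to 63.5, 70.0 and 46.6 CPM in those saline libraries and to 81.8, 104 and 68.2 CPM in those ethanol libraries, highest in the same ethanol mouse as *Ngfr*, and their part was not tested. In dHPC *Ngfr* was at -0.30 ± 0.13 without overlap, from 2.39, 2.66 and 2.60 CPM with saline to 1.95, 2.03, 2.07 and 2.19 CPM with ethanol, and an FDR of 0.623. All 6 cholinergic and all 12 striatal projection neuron markers had a lower mean with ethanol there (median log2 fold changes -0.86 and -0.96). None of these markers was called, and their part was not tested.

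Outside DS, the GDNF-family receptors with the lowest acute FDRs were those of vHPC. *Gfra1* in vHPC had 56.5, 55.1 and 47.3 CPM with saline and 74.9, 88.3 and 63.3 CPM with ethanol, without overlap, at +0.51 ± 0.14 and an FDR of 0.245. *Ret* in vHPC had 15.4, 25.9 and 3.58 CPM with saline and 3.76, 3.59 and 0.561 CPM with ethanol, at -2.50 ± 0.75 and an FDR of 0.280. Of the saline mice, 2 lay above all ethanol mice and 1 within their range. Without that mouse, vHPC acute saline replicate 6, the FDR was 0.0834. The 6 thalamic neuron markers summed to 807, 213 and 139 CPM in these saline libraries and to 71.7, 204 and 59.6 CPM in the ethanol libraries. The 6 dentate granule neuron markers all had a higher mean with ethanol (median log2 fold change 1.05). So had 5 of 6 hippocampal pyramidal (0.80) and 11 of 12 striatal projection neuron markers (0.80), while the 8 oligodendrocyte markers had a lower one (-0.28). None of these markers was called. Their part in the acute vHPC values of *Bdnf*, *Gfra1* and *Ret* was not tested.

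**Figure D3:**
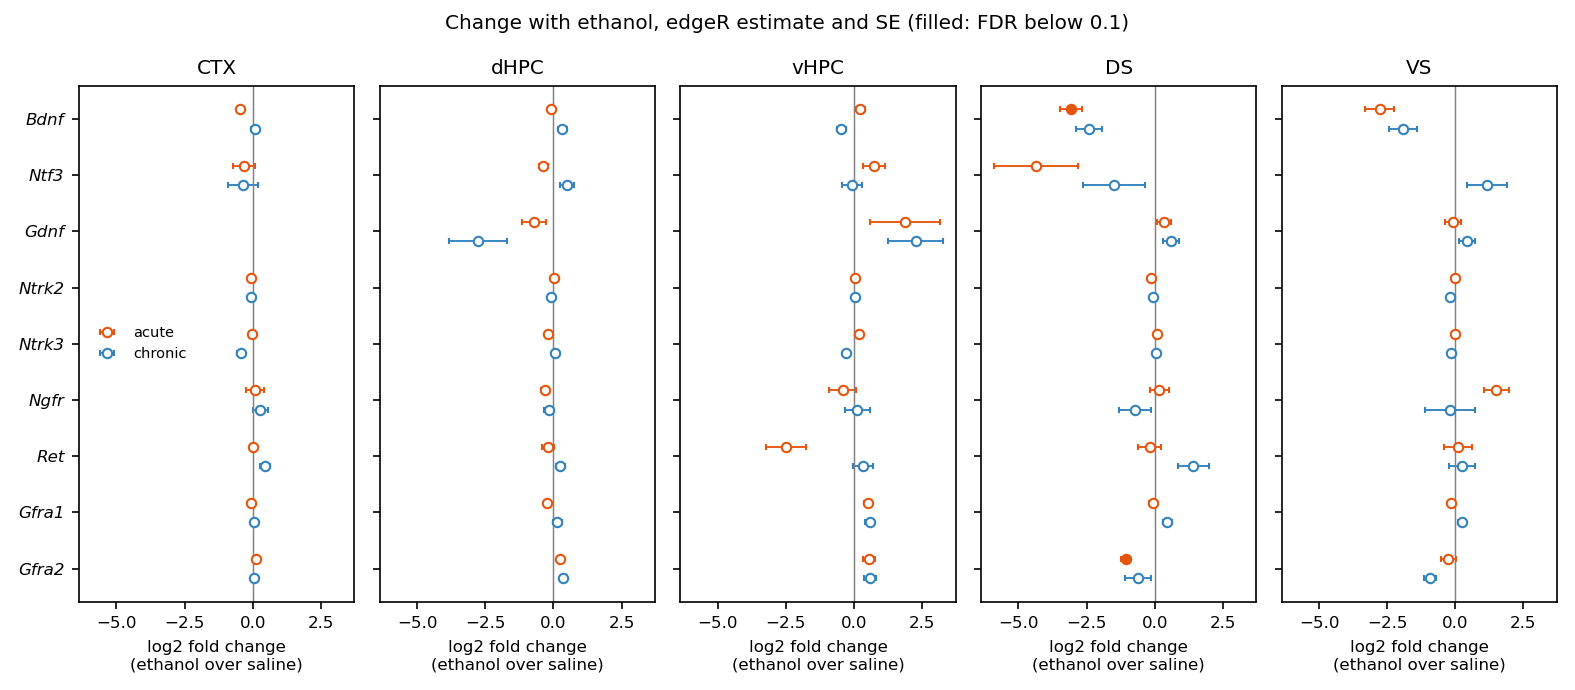
Log2 fold change of ethanol over saline (horizontal axis, bars are SEs) of each gene (vertical axis) in the 5 regions, for the acute and the chronic paradigm; filled points have an FDR below 0.1. The only filled points are *Bdnf* at -3.06 and *Gfra2* at -1.07 in DS after acute ethanol, and chronic *Bdnf* values in DS and VS lie on the same side.

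After 10 daily injections edgeR called 0 of 44 tested pairs, while 15 had an unadjusted p under 0.05, against 9.14% of all genes over the 5 regions. DESeq2 called 4 pairs, *Bdnf* in DS and VS, *Gfra2* in VS and *Gfra1* in vHPC, and its share of all genes was 0.776% for DS, 1.79% for VS, 1.08% for vHPC, 0.608% for CTX and 0.859% for dHPC. Over all genes, edgeR called 0% in CTX, dHPC, DS and VS and 0.0555% in vHPC. The groups did not overlap in 15 pairs, against 16.1% of all genes, among them *Bdnf* in all regions but CTX.

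*Bdnf* in DS had 10.1 and 9.08 CPM in the 2 chronic saline mice and 1.90, 3.13, 1.71 and 0.510 CPM in the 4 chronic ethanol mice. All ethanol mice were below both controls, at a log2 fold change of -2.42 ± 0.48 (5.35-fold lower), an unadjusted p of 0.000674 and an FDR of 0.346 in edgeR's test. In VS it had 4.03, 1.90 and 6.65 CPM with saline and 1.45, 1.30 and 0.539 CPM with ethanol, at -1.92 ± 0.52 and an FDR of 0.326, or 0.0395 without VS chronic saline replicate 5, the control at 1.90 CPM. That control also had the lowest pallial marker sum of the VS controls, 95.7 CPM against 762 and 475, and the ethanol mice had 49.7, 108 and 41.6 CPM. In DS the marker sums were 607 and 462 CPM with chronic saline and 57.1, 184, 80.7 and 34.3 CPM with chronic ethanol, and their part in the *Bdnf* values was not tested.

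In the hippocampus the chronic *Bdnf* differences had opposite signs. In vHPC saline mice had 54.7, 49.99 and 47.7 CPM and ethanol mice 43.5, 28.8 and 39.0 CPM, at -0.46 ± 0.15 and an FDR of 0.420. In dHPC saline mice had 49.1, 28.1 and 42.5 CPM and ethanol mice 51.1, 49.2 and 50.001 CPM, at +0.33 ± 0.17 and an FDR of 0.660. Neither pair of groups overlapped, though in dHPC the highest control and the lowest ethanol mouse were at 49.09 and 49.16 CPM, and the dHPC control at 28.1 CPM was the library with the high striatal marker sum of 3541 CPM. In vHPC the pallial marker sums were 2268, 2346 and 2688 CPM with saline and 2143, 1529 and 1706 CPM with ethanol, and *Bdnf* per 100 CPM of them overlapped, at 1.77 to 2.41 and 1.88 to 2.29. The same ratio in dHPC did not overlap, at 2.50, 2.15 and 2.51 with saline and 2.75, 2.55 and 2.56 with ethanol. Markers of other cells moved in the same dHPC libraries. All 6 dentate granule neuron markers had a higher mean with ethanol (median log2 fold change 0.59). All 12 striatal projection neuron (-2.52), 6 cholinergic neuron (-2.96) and 8 oligodendrocyte markers (-0.35) had a lower one, with no call in these lists. Their part in the chronic dHPC values of *Bdnf* and *Gfra2* was not tested.

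*Gfra2* in VS had 33.8, 22.2 and 26.2 CPM with chronic saline and 18.9, 12.7 and 11.4 CPM with chronic ethanol. The groups did not overlap, and the log2 fold change of -0.94 ± 0.22 had the lowest FDR of the chronic pairs, 0.266, or 0.0420 without VS chronic saline replicate 5. Replicate 5 was the control with the lowest pallial marker sum, given above. *Gfra2* per 100 CPM of these markers was at 4.43, 23.2 and 5.52 CPM with saline and 38.1, 11.8 and 27.6 CPM with ethanol, which overlap. The part of the pallial markers in the VS *Gfra2* values was not tested. In DS the 2 controls, at 28.9 and 7.22 CPM of *Gfra2*, lay on both sides of the ethanol mice at 9.22, 11.0, 18.2 and 9.18 CPM. In dHPC *Gfra2* was higher with ethanol in all mice, 32.9, 29.3 and 36.6 against 27.7, 22.9 and 27.1 CPM, at +0.34 ± 0.10 and an FDR of 0.566. In vHPC it was at +0.57 ± 0.22, FDR 0.474, and without vHPC chronic ethanol replicate 4 its FDR was 0.0797.

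*Gfra1* and *Ret* had positive chronic log2 fold changes in all 5 regions, 0.05 to 0.58 and 0.25 to 1.41, none of which was called. *Gfra1* in vHPC had 63.4, 48.3 and 52.2 CPM with saline and 62.2, 90.2 and 93.8 CPM with ethanol, at +0.58 ± 0.16 and an FDR of 0.356, or 0.0423 without vHPC chronic ethanol replicate 4, the ethanol mouse within the control range. Markers of other cells moved in the same vHPC libraries. The 6 choroid plexus markers summed to 26.3, 202 and 113 CPM with saline and 873, 3155 and 1347 CPM with ethanol, and 4 of them rose. The 12 striatal projection neuron markers all had a higher mean with ethanol (median log2 fold change 1.72), as had the 8 oligodendrocyte markers (0.68), while the 6 hippocampal pyramidal neuron markers all had a lower one (-0.45), with no call in these 3 lists. The part of these markers in the chronic vHPC values of *Bdnf*, *Gfra1* and *Gfra2* was not tested. *Ret* in DS had 2.74 and 1.85 CPM with saline and 8.93, 2.94, 9.52 and 3.23 CPM with ethanol, without overlap, at +1.41 ± 0.56 and an FDR of 0.614. In those DS libraries all 6 thalamic (median 0.96), 6 cholinergic (0.47) and 12 striatal projection neuron markers (0.43) had a higher mean with ethanol. The 8 oligodendrocyte markers all had a lower one (-0.32). None of these markers was called, and their part in the chronic DS values of *Ret* and *Gfra1* was not tested.

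The remaining genes gave chronic FDRs of 0.443 or more. *Ntrk3* in CTX had 177, 133 and 114 CPM with saline and 114, 98.3 and 102 CPM with ethanol, at -0.44 ± 0.15, and *Ntrk2* in VS had 639, 634 and 595 CPM with saline and 556, 538 and 547 CPM with ethanol, at -0.19 ± 0.08. Neither pair of groups overlapped, and the FDRs were 0.443 and 0.470. *Ngfr* in VS had 1 saline mouse at 15.3 CPM beside 2 at 1.51 and 1.53 CPM, and that mouse had a cholinergic marker sum of 144 CPM against 62.0 and 55.6 CPM. *Gdnf* in DS had 3.46 and 2.22 CPM with saline and 3.95, 4.31, 4.52 and 4.67 CPM with ethanol, at +0.60 ± 0.29 and an FDR of 0.696.

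Whether the ethanol effect differed between the paradigms was tested by the paradigm × treatment interaction within each region. EdgeR called 0 of 44 pairs, with 7 at an unadjusted p under 0.05 (6.55% of all genes over the 5 regions) and 0 called by DESeq2 (0.386% of all genes), and 0% of all genes were called by edgeR in each of the 5 regions. The lowest FDRs were those of *Ret* in vHPC (0.313), whose chronic minus acute effect was +2.82 on the log2 scale, and of *Bdnf* in vHPC (0.354), at -0.68. In DS and VS the *Bdnf* interaction was not called, and the acute values of -3.06 and -2.77 stood beside chronic ones of -2.42 and -1.92.

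At the isoform level, the 11 *Bdnf* isoforms were called as lower by edgeR after acute ethanol in CTX (1.24% of all isoforms called, 0.745% as lower), DS (3.59%, 2.31% as lower) and VS (0.233%, 0.18% as lower), 33 calls in all against 26 by DESeq2, which called 1.77% of all isoforms over the 5 regions. In dHPC (0.0015% called) and vHPC (0%) none of them was called. EdgeR called 0 *Ntrk2* isoforms in any region, and 3 in DS had an unadjusted p under 0.05 (13.5% of all isoforms), such as Ntrk2-201 at -0.22 ± 0.08 with an FDR of 0.214, which DESeq2 put at 0.215. Reads were counted for every isoform they overlapped, so all 11 carry the reads of the shared 3′ exon and these are 1 observation per region. Their mean counts over all libraries, 783 to 817 reads, lie within a narrow range. Bdnf-205, the isoform with the largest mean count, was at -0.46 ± 0.11 in CTX (FDR 0.0862), -3.23 ± 0.37 in DS (FDR 3.99e-05) and -2.76 ± 0.49 in VS (FDR 0.0635). The CTX call was lost when any of 5 libraries, all but CTX acute ethanol replicate 2, was left out (FDR up to 0.382), and the VS call without VS acute saline replicate 4, saline replicate 6 or ethanol replicate 3 (FDR 0.171, 0.403 and 0.434). After chronic ethanol 0 isoforms were called by edgeR, 37 had an unadjusted p under 0.05 (8.44% of all isoforms over the 5 regions) and DESeq2 called 22 (0.589%), and edgeR called 0.0402% of all isoforms in vHPC, 0.00827% in VS and 0% elsewhere.

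Reads that lay only in 1 first exon could be bounded from below, as the excess of an isoform's count over the smallest count among isoforms. In saline mice exon VI (Bdnf-205) had 0.663 ± 0.221 CPM in CTX (SD, n = 6), 1.88 ± 0.352 in dHPC and 1.59 ± 0.722 in vHPC, which is 2.47%, 4.88% and 3.58% of the gene's reads. Exon IV (Bdnf-209), whose upstream bases hold the cAMP response element variant, had 0.675 ± 0.230, 0.538 ± 0.210 and 1.06 ± 0.631 CPM. Exons VI and IV overlapped in CTX, while in dHPC the lowest exon VI value, 1.43 CPM, was above the highest exon IV value, 0.878 CPM. Exon I (Bdnf-201) had 0.381, 0.513 and 0.696 CPM and exon II (Bdnf-210) 0.315, 0.375 and 0.423 CPM in the same 3 regions. In DS and VS each of these exons averaged under 3 reads per library, so a difference between promoters was not detectable there at this depth.

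**Figure D4:**
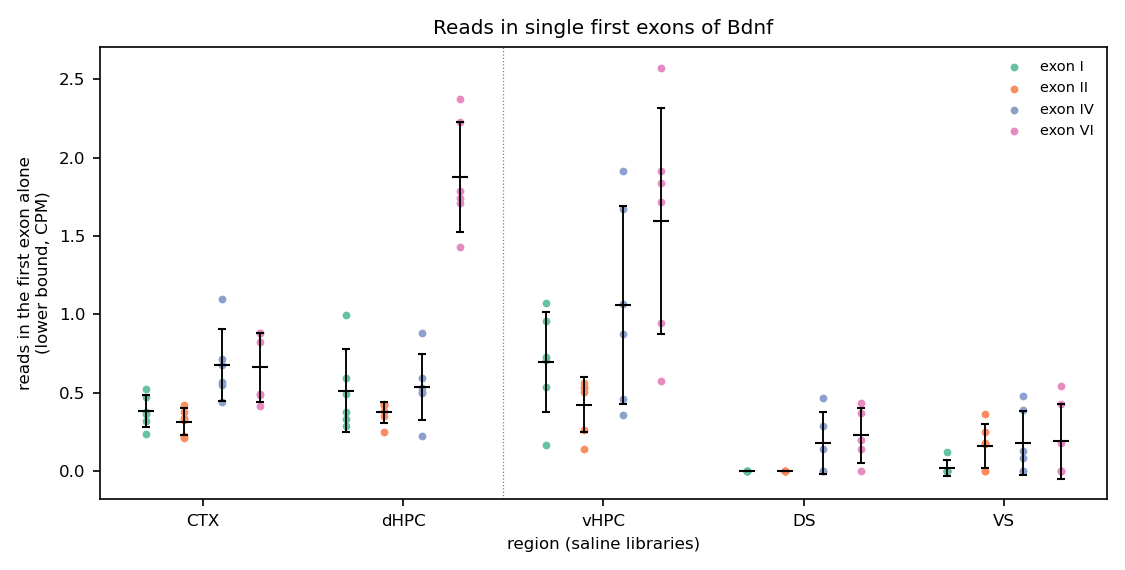
Lower bound on reads that lie only in the first exon I, II, IV or VI of *Bdnf* (vertical axis, CPM) in each saline library by region (horizontal axis), with mean and SD (error bars); the dotted line parts the 2 batches. Exon VI stands above the others in dHPC, at 1.88 CPM on average, and DS and VS libraries lie near 0.

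The first-exon reads were also set beside ethanol, mainly in the hippocampus, as a description chosen after the values were seen, with no test. In vHPC, exon IV had 1.07, 1.67 and 1.91 CPM with chronic saline and 0.437, 0.463 and 0.842 CPM with chronic ethanol, and exon VI had 2.57, 1.84 and 1.91 CPM and 1.25, 1.45 and 1.26 CPM. Both exons were lower in all ethanol mice, as was the gene. In dHPC, exon VI had 1.79, 1.71 and 1.74 CPM with chronic saline and 2.92, 2.19 and 2.78 CPM with chronic ethanol, and was higher in all ethanol mice, as was the gene. Exon IV in dHPC overlapped, at 0.878, 0.592 and 0.223 CPM with chronic saline and 0.501, 0.623 and 0.582 CPM with chronic ethanol. After acute ethanol, exon VI in vHPC had 0.943, 1.72 and 0.573 CPM with saline and 2.02, 2.19 and 2.11 CPM with ethanol, without overlap, while the gene overlapped there, as did exon IV, at 0.875, 0.462 and 0.358 CPM and 1.04, 0.798 and 0.632 CPM. In dHPC both exons overlapped after acute ethanol. Exon II did not overlap after chronic ethanol, at 0.251, 0.351 and 0.380 CPM against 0.458, 0.523 and 0.905 CPM in dHPC. In vHPC it had 0.533, 0.502 and 0.558 CPM against 0.4998, 0.0578 and 0.140 CPM, while exon I overlapped in both regions. In CTX after acute ethanol exon II had 0.376, 0.340 and 0.324 CPM against 0.161, 0.223 and 0.242 CPM, without overlap, while exons I, IV and VI overlapped. These values rested on few reads in vHPC, 8 to 29 for exon VI, 5 to 24 for exon IV and 2 to 8 for exon II in the saline libraries. Mates appear as separate reads, so the number of pairs is smaller. How often groups with such low counts do not overlap was not counted.

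For *Ntrk2*, Ntrk2-201 had the largest mean count of all isoforms, 12049 reads, and Ntrk2-202 had 10048. The ratio of the truncated to the full-length isoform was 0.618 ± 0.0326 in CTX saline mice (SD, n = 6) and 0.9504 ± 0.0562 in dHPC saline mice. The lowest dHPC value, 0.888, was above the highest CTX value, 0.666, and the log2 difference of 0.62 had a two-sided exact permutation p of 0.00216, the smallest this test can give, or 0.00866 after adjustment over 4 region comparisons, a test added after the data were seen that does not use the pairing of regions by mouse. Ratios averaged 0.967 for vHPC, 0.906 for DS and 0.968 for VS. The 3 comparisons among these regions had adjusted p of 0.430 to 0.989 by the same exact test. The isoforms share exons, and with only the gene's reads that fell outside the other isoform the ratio was 0.405 in CTX and 0.910 in dHPC. Those reads can include reads of further *Ntrk2* isoforms. All these ratios are of counts, with no correction for isoform length, 6846 bases for Ntrk2-202 and 8744 for Ntrk2-201. They are not ratios of molecules.

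Ethanol did not change the ratio past the threshold in any region. Averaged over both paradigms, the log2 difference of ethanol minus saline ran from 0.01 (dHPC) to 0.11 (DS), with 0.08 in CTX, 0.03 in vHPC and 0.10 in VS. The two-sided exact permutation p, adjusted over the 5 regions, lay between 0.479 (CTX and DS) and 0.754 (dHPC and vHPC). The smallest unadjusted p this design allows is 0.00143 in dHPC and DS and 0.005 in the others. In DS the acute mice did not overlap, at 0.807, 0.801 and 0.8288 with saline and 0.958, 0.886 and 0.938 with ethanol. Chronic DS mice did overlap, at 0.903, 1.05 and 1.04 with saline and 0.877 to 1.17 with ethanol. DS chronic saline replicate 2 enters these ratios, since its counts on chromosome 13 are present.

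**Figure D5:**
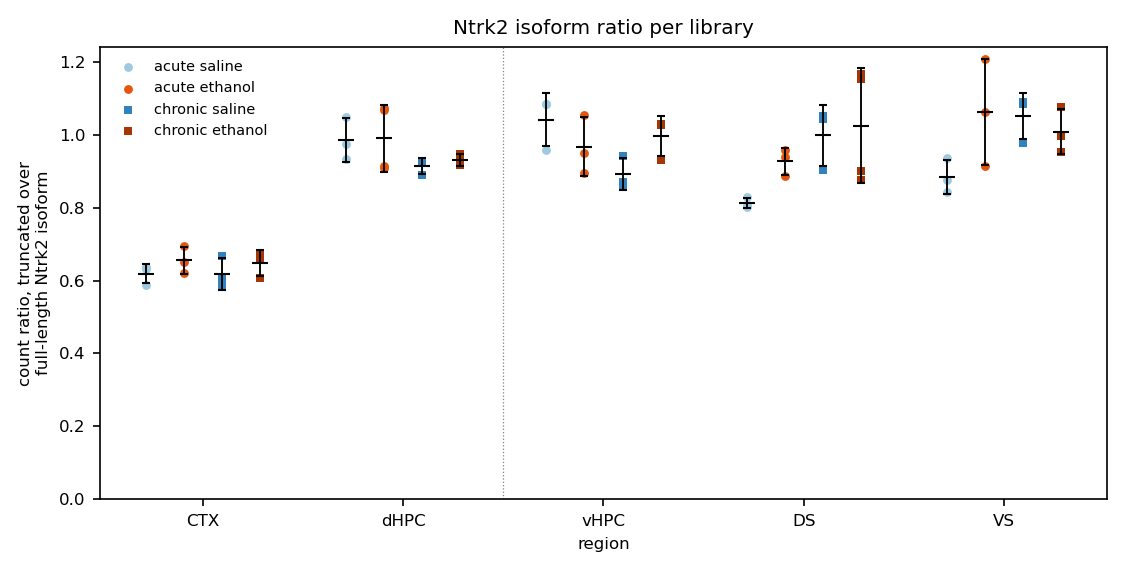
Ratio of the counts of the truncated Ntrk2-202 to those of the full-length Ntrk2-201 (vertical axis, from 0) in each library by region, paradigm and treatment (horizontal axis and colours), with mean and SD (error bars); the dotted line parts the 2 batches. CTX libraries lie between 0.581 and 0.694 and those of the other regions between 0.801 and 1.21.

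The wider pathway was read from lists of other ligands, other receptors, precursor-processing enzymes, adaptors and response genes. The 12 response genes were listed for neurotrophin and ERK signalling, but the list also holds genes induced by neuronal activity, such as *Npas4*. Their means therefore do not measure neurotrophin signalling. In CTX after acute ethanol, 12 of 12 had a lower mean, with a median log2 fold change of -0.37 against 0.0024 over all genes tested. Of these, 4 fell: *Egr2* (-1.18, FDR 0.0407), *Fos* (-0.86, FDR 0.0858), *Arc* (-0.77, FDR 0.0924) and *Nptx2* (-0.39, FDR 0.0564). *Egr2* and *Fos* are activity-induced transcription factors, and the other genes act at the synapse. In these CTX libraries 5 of 8 oligodendrocyte markers rose, and 3 of 12 striatal projection neuron and 3 of 6 meningeal fibroblast markers fell. In DS all 12 had a lower mean too, with a median of -0.38 against 0.0038 over all genes, and 2 fell, *Etv5* (-0.64) and *Npas4* (-0.39). In VS 11 of the 12 had a lower mean (median -0.59), while in dHPC 7 and in vHPC 10 had a higher one, with no call in these regions. The adaptor *Shc3*, which links Trk receptors to the Ras pathway, fell in CTX and DS, by 0.41 and 0.40 on the log2 scale, as the 1 of 23 adaptors and effectors called in each. That is 4.35% of the list, where 1.99% of all genes were called in CTX and 5.15% in DS, so in DS the count is no more than that over all genes.

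In DS the precursor convertases *Pcsk1* and *Pcsk5* also fell after acute ethanol, at -1.01 ± 0.20 and -1.40 ± 0.38 (2 of 7 processing genes, where 5.15% of all genes were called). Of 9 other receptors tested there, *Lingo1*, a partner of p75, fell (-0.79 ± 0.09, FDR 0.000253), and the sortilin-family receptors *Sorcs1* and *Sorcs2* rose (+0.27 ± 0.07 and +0.30 ± 0.08). The DS calls of these lists stand beside the change of cell markers in the same libraries, where 8 of 9 pallial excitatory neuron markers fell (median -3.20 on the log2 scale) and 9 of 12 striatal projection neuron markers rose. The part of markers in the pathway calls of CTX and DS was not tested. *Pcsk5* was the 1 call in VS, at -1.91 ± 0.26 with an FDR of 0.0983. Neurturin (*Nrtn*), the ligand that prefers the *Gfra2* product, was not called in any comparison of ethanol with saline.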

How the data were processed

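The authors made the gene and isoform count tables: Cutadapt 5.0 for trimming, STAR 2.7.10a for alignment to GRCm39 and featureCounts 2.0.6 for counting on exons. Deposited values are raw counts without normalization. Reads overlapping several features or places were counted for each. All libraries were counted as reverse-stranded, although the CTX and dHPC kit keeps no strand. There, reads of *Bdnf*, *Ntrk3*, *Ntf3*, *Gfra1* and *Gfra2* cannot be told apart from those of genes on the other strand that share 1.24% to 16.5% of their exon bases. Of gene counts from 1 to 50, 66.9% to 88.4% per region were even, so mates appear as separate reads, and counting precision follows the number of pairs. Without molecular identifiers, reads cannot be taken as independent molecules.

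The main test was edgeR 4.0.16 (quasi-likelihood, TMM, limma 3.58.1, R 4.3.3), fitted on the whole table to the groups of a comparison, after a filter that kept a feature if 2 or more libraries of a group had 5 or more counts. Calls have an FDR below 0.1. The steps were tested on simulated data. Region tests used saline libraries with mouse as a block. Alternatives were DESeq2 1.42.0, its size factors, no filter or one of 10 counts per library, 1 fit over all 4 groups of a region, a replicate block, the incomplete DS library included, and each library left out. Python 3.11.15 (pandas 2.3.3, numpy 2.4.6, scipy 1.17.1, pysam 0.24.0) and matplotlib 3.10.9 did the rest. No 2 libraries had identical counts.

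The members and gene lists were chosen with earlier results of these data known. Named genes are the 9 members, called isoforms of *Bdnf* and *Ntrk2* and the largest isoform, called genes of the 5 pathway lists, and for each member the 3 genes most correlated with it. Gene spans and exon structures are from GENCODE vM39, in which the lengths of all 21 isoforms matched the count table.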

Additional observations from a re-analysis of the deposited data

Results flagged for a closer look

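Pairs of regions with opposite differences between ethanol and saline in the same paradigm, and with groups that did not overlap in either region, numbered 5. How many such pairs occur over all genes was not counted. Groups without overlap within a region made up 15.2% of all genes after acute and 16.1% after chronic ethanol. None of these contrasts between regions was tested, and dHPC belongs to another batch than vHPC, DS and VS. *Bdnf* after chronic ethanol was at 0.326 (log2) in dHPC against -0.462 in vHPC, -2.42 in DS and -1.92 in VS. *Gfra2* after chronic ethanol was at 0.343 in dHPC against -0.937 in VS. *Ngfr* after acute ethanol was at -0.303 in dHPC against 1.502 in VS. The 6 cholinergic neuron markers all had a lower mean with ethanol in dHPC and a higher one in VS, and their part was not tested. The groups of 4 mice gave 20 sets of values in which 1 mouse could stand far from the others, and 0 did.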

How the results depend on the processing

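For single genes, isoforms and ratios, 442 alternative values kept their direction and side of the threshold, 51 passed it only in the alternative, 17 lost it and 7 changed sign. *Bdnf* in DS after acute ethanol was called in every alternative. The number of member calls after acute ethanol, 2, became 5 in DESeq2, 8 without the low-count filter and 1 in a single fit of a region's 4 groups, and ran from 2 to 4 with single libraries left out, at 4 without VS acute ethanol replicate 2. After chronic ethanol, 0 became 4 in DESeq2, 7 without the filter and 1 in the fit of 4 groups (*Bdnf* in DS, FDR 0.0524), and ran from 0 to 2 with libraries left out, at 2 without vHPC chronic ethanol replicate 4 or VS chronic saline replicate 5. For the interaction, 0 became 5 without the filter and ran from 0 to 1, at 1 without vHPC acute saline replicate 6 (*Ret*, FDR 0.0912). *Bdnf* and *Ntrk2* isoform calls after chronic ethanol, 0, became 22 in DESeq2 and 23 without the filter, and ran from 0 to 11 with libraries left out, at 11 without VS chronic saline replicate 5. Those after acute ethanol ran from 22 to 34. The cause was not tested. For these alternative fits, the share of all genes or isoforms called is given above only for DESeq2. The other counts therefore show nothing particular to the members. Calls between regions numbered 15 to 23 against 19. The *Ntrk2* ratio difference changed sign, without passing a test, in vHPC with acute mice alone (-0.109) and in VS with chronic mice alone (-0.0593), and with single libraries left out it ran from -0.00501 to 0.0381 in dHPC and from -0.00667 to 0.0524 in vHPC. Replicate numbers are shared by different mice and gave correlations of deviations of -0.401 to 0.107 over 7 same-numbered pairs, and not every library correlated best with its own number. A replicate block, possible in CTX and acute dHPC, left the calls at 2 after acute and 0 after chronic ethanol (*Bdnf* in CTX after acute ethanol at -0.33, FDR 0.136), and without the mouse as a block 20 region calls were made. *Bdnf* rested on 6 to 40 reads in each striatal ethanol library against at least 781 in each CTX library, and 2 to 4 mice a group leave differences as small as those of CTX near the limit of detection.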

Other observations

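The 3 genes whose levels followed each member most closely were found over 61 libraries, after subtraction of each region's mean, among genes with a mean of at least 5 CPM. The values are Pearson correlations between libraries that share mice, depth and tissue composition, and carry no test. *Bdnf* was most like *Rtn4r* (0.894), which encodes the Nogo receptor, *Rtn4rl2* (0.890) and *Cck* (0.878). *Gdnf* was most like *Cdc42ep3* (0.803), *Penk* (0.760), which encodes proenkephalin and is a marker of striatal neurons, and *Rarb* (0.758). For *Ntrk3* they were *Arfgef3* (0.779), the NMDA receptor subunit *Grin2b* (0.725) and *Brwd1* (0.704), and for *Gfra2* the somatostatin receptor *Sstr1* (0.771), *Doc2a* (0.742) and the potassium channel *Kcnc4* (0.736). *Ngfr* was most like *Itih3* (0.754), *Sparc* (0.724) and *Agt* (0.710), and *Ntf3* like *Cemip* (0.716), *Fat4* (0.705) and *Cyth1* (0.683). *Ret* was most like *Klhdc8a* (0.709), *Fgf1* (0.708) and *Gpr165* (0.707). The lowest leading correlations were those of *Gfra1*, with *Adcyap1r1* (0.673), *Kirrel3* (0.624) and *Snhg5* (0.6002), and of *Ntrk2*, with *Pou3f2* (0.667), *Dchs1* (0.649) and *Hipk2* (0.648).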
